A study of Canis lupus familiaris with 24 samples.

Results

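FLT3, CLU and CD1C are genes commonly used to mark dendritic cells, and their levels were examined in lymph node aspirates of 4 dogs whose tumours were B-cell lymphomas. Every array probe assigned by its RefSeq accession to dog FLT3, CLU or CD1C was taken, which gave 8 of 43603 probes, namely 1 for FLT3 (NM_001020811), 5 for CLU (NM_001003370) and 2 for CD1C (NM_001128836). These are 3 of 832 genes on the array that could be named. All 8 passed the filter on dim signals and were among the 34551 probes tested. Probes of a gene are numbered by brightness, probe 1 being the brightest.

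Each dog was aspirated from its peripheral lymph nodes in a drug-resistant and in a drug-sensitive phase of its disease, and the labels name no drug. Dog 1 was a male Shih Tzu aged 10 years, dog 2 a male Doberman aged 9 years, dog 3 a castrated male French Bulldog aged 3 years and dog 4 a spayed female French Bulldog aged 5 years, with 1 age given for both phases. No healthy lymph node was compared. Taking each dog and phase as a group gave 8 groups of 3 one-colour Agilent arrays, 24 in all. Nothing states whether the 3 came from separate aspirates, so p-values within a dog measure only the spread between arrays, which may be technical. That spread was taken per probe over all 8 groups, so the p-value of 1 dog also rests on arrays of the other dogs.

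Conventional dendritic cells take up antigen and present it to T cells in the lymph node, and plasmacytoid dendritic cells make interferon. Both develop from bone marrow progenitors under the receptor tyrosine kinase FLT3, which binds the cytokine FLT3 ligand. Follicular dendritic cells, in contrast, are stromal cells that hold antigen for B cells in the follicle, and they are known for strong expression of CLU, which codes for clusterin, a secreted chaperone that also binds lipoproteins and complement. CD1C codes for a membrane protein that presents lipid antigens to T cells and, in humans, marks a class of conventional dendritic cells and some B cells.

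Levels are log2 of the background-subtracted spot signal minus the 75th percentile of the array, so a negative level lies below that percentile, and levels of different probes are not set against each other. The 75th percentile lay between 676 and 1118 intensity units, and 71.0% to 80.9% of an array's spots were well above background. A change is the resistant minus the sensitive mean on this scale, with its standard error (SE) from limma. Within a dog, a probe was said to have risen or fallen if its Benjamini-Hochberg adjusted p over all tested probes was under 0.05 and its change at least 2-fold. The number of arrays limits the precision. MS4A1, which codes for the B cell antigen CD20, was the 1 measured gene of a 13-gene B cell list and was well above background on all 24 arrays, with mean changes of -0.29, 0.16, 0.21 and -0.28 in dogs 1 to 4.

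FLT3 was lower in the resistant phase in 4 of 4 dogs. It fell in dog 1 (-1.09, SE 0.27, 2.13-fold, limma adjusted p = 0.00231) and in dog 3 (-1.36, SE 0.27, 2.57-fold, limma adjusted p = 0.000403). In dog 2 its change was -0.73 (SE 0.27, limma adjusted p = 0.0277) and in dog 4 -0.79 (SE 0.27, limma adjusted p = 0.0235), both under 2-fold. The SE was the same in each dog because the 8 groups shared 1 spread. Their own SDs ran from 0.02 in resistant dog 2 to 0.85 in resistant dog 1. Of all tested probes, 7.75%, 10.1%, 5.45% and 1.57% fell in dogs 1 to 4, and 7.36% were lower in all 4 dogs without regard to size.

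On the single arrays of dog 1, FLT3 lay at -5.97, -4.43 and -5.83 in the resistant phase, against -4.44, -4.50 and -4.01 in the sensitive phase. Resistant array 2 lay among the sensitive arrays, so the phases overlapped in dog 1. Dog 2 had levels of -3.10, -3.06 and -3.06 in the resistant phase, against -2.29, -2.33 and -2.42 in the sensitive phase. In dog 3 the levels were -3.37, -3.57 and -3.18 on resistant arrays, against -2.04, -1.96 and -2.03 on sensitive arrays. Dog 4 had -4.80, -4.68 and -4.89 on resistant arrays and -4.28, -3.67 and -4.05 on sensitive arrays. In dogs 2, 3 and 4 every resistant array lay below every sensitive array of the same dog. Arrays of the phases did not overlap in either direction for 63.3%, 70.4%, 57.5% and 57.1% of all tested probes in dogs 1 to 4, so separation of this kind was common.

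The FLT3 spots were dim, with processed signals from 14.1 to 42.5 intensity units on resistant arrays of dog 1 and up to 217 on the sensitive arrays of dog 2, yet they were well above background on all 24 arrays. Ordered by mean, FLT3 was highest in the sensitive phase of dog 3 (-2.01 ± 0.04), followed by sensitive dog 2 (-2.35 ± 0.07), resistant dog 2 (-3.07 ± 0.02), resistant dog 3 (-3.38 ± 0.20), sensitive dog 4 (-4.00 ± 0.30), sensitive dog 1 (-4.32 ± 0.27), resistant dog 4 (-4.79 ± 0.11) and resistant dog 1 (-5.41 ± 0.85; SD, n = 3 arrays each). Sensitive dogs 4 and 1 overlapped, as did resistant dogs 4 and 1. The resistant groups of dogs 2 and 3 thus lay above the sensitive groups of dogs 4 and 1.

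**Figure D1:**
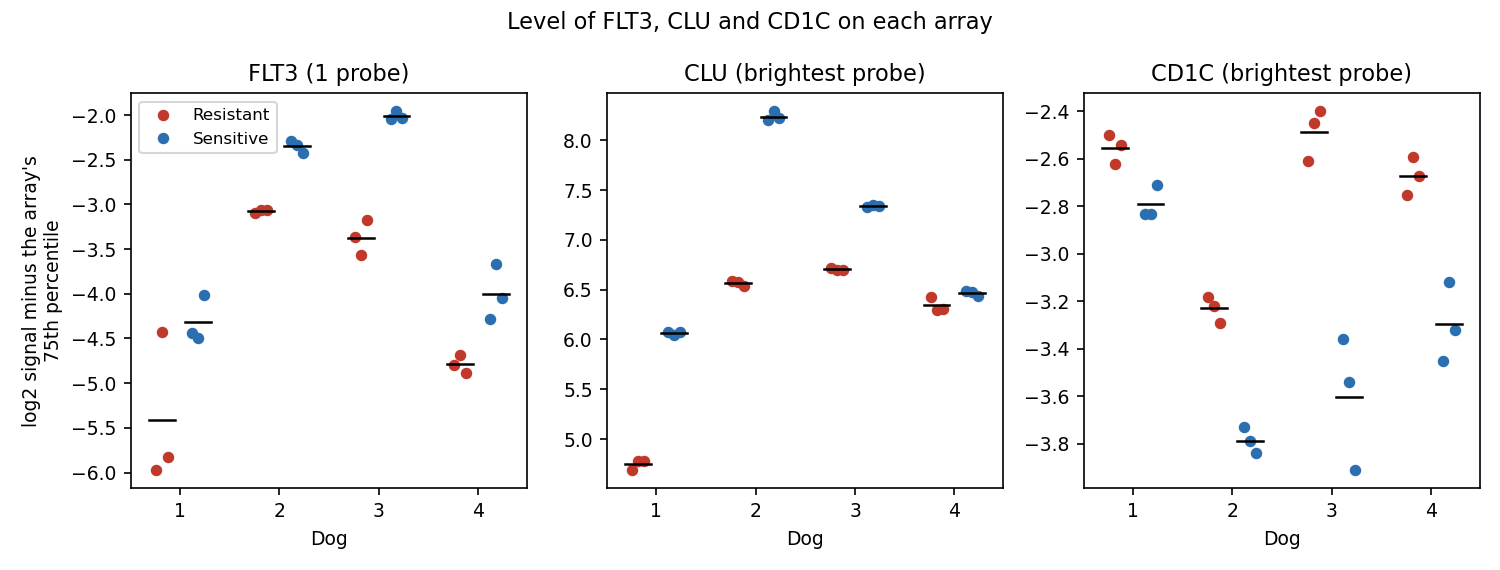
Level of FLT3, CLU probe 1 and CD1C probe 1 on each of the 24 arrays (y axis, log2 signal minus the array's 75th percentile) by dog (x axis), with resistant arrays in red left of sensitive arrays in blue and bars at the mean of 3 arrays. FLT3 and CLU means are lower in the resistant phase in every dog and CD1C means are higher, and resistant array 2 of dog 1 stands at -4.43 for FLT3, apart from -5.97 and -5.83 on the other resistant arrays.

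The FLT3 call in dog 1 rested on single arrays. Without resistant array 2 the change was -1.58, and it was -0.81 without resistant array 1, -0.88 without resistant array 3 and -0.94 without sensitive array 3, all 3 under 2-fold. Within slide 1, which held resistant array 1 and all 3 sensitive arrays of dog 1, it was -1.66 (SE 0.38). Within slide 3 the change in dog 2 was -0.65 (SE 0.38), and within slide 4 that in dog 3 was -1.36 (SE 0.38). In dog 4 the 3 resistant arrays were alone on slide 7 and were scanned on a different day from all the others, so slide, scan day and phase cannot be told apart in that dog. The call in dog 1 ended under every other scaling tried, at -0.86 after quantile normalisation, -0.91 with median scaling and -0.56 in the deposited value table, which is not background-subtracted. After normexp background correction with quantile normalisation the FLT3 changes were -0.26, -0.36, -0.81 and -0.32 in dogs 1 to 4, and the call in dog 3 ended too. The sign stayed negative in all 4 dogs under each of these scalings.

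Averaged over the dogs, FLT3 changed by -0.99 (SE 0.16, 95% interval -1.40 to -0.59, lower in 4 of 4 dogs). In limma's fit to the 8 means, with each dog its own block, it did not pass (unadjusted p = 0.00141, adjusted p = 0.541). The exact two-sided sign-flip permutation test gave the smallest p that 4 dogs allow, 1 in 8. In that limma fit 0 of 34551 probes passed (0%, lowest adjusted p 0.348), and 2122 probes (6.14%) had an unadjusted p under 0.05. The F-test between dogs used the spread shared by the 8 groups, which for FLT3 included the scattered resistant arrays of dog 1. In it the FLT3 changes did not differ detectably (limma F-test, adjusted p = 0.374), whereas 80.5% of all probes did differ. After normexp background correction with quantile normalisation that adjusted p was 0.00878, and with quantile normalisation alone, a fit added after the data were seen, it was 0.457.

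CLU was lower in the resistant phase in dogs 1, 2 and 3 and within 1.10-fold between the phases in dog 4. All 5 probes fell in dog 1, by 1.31 to 1.47 on the log2 scale, and all 5 fell in dog 2, by 1.66 to 2.41. Of all tested probes, 7.75% fell in dog 1 and 10.1% in dog 2. In dog 3 the arrays of the phases were apart on every CLU probe, as on 57.5% of all tested probes. The CLU changes in dog 3 ran from -0.63 to -0.36, none of them 2-fold. In dog 4 they ran from -0.13 to 0.05, where probe 1, at -0.12, was at -0.24 with quantile normalisation, -0.29 in the deposited value table and -0.36 after normexp correction with quantile normalisation, all under 2-fold. The changes differed between dogs on each probe (limma F-test, adjusted p = 1.5e-14 for probe 1).

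On probe 1, CLU stood at 4.69, 4.78 and 4.78 on the resistant arrays of dog 1, against 6.07, 6.04 and 6.07 on the sensitive arrays (-1.31, SE 0.03, 2.48-fold, limma adjusted p = 5.92e-16). In dog 2 it stood at 6.59, 6.58 and 6.54 on resistant arrays, against 8.20, 8.29 and 8.22 on sensitive arrays (-1.66, SE 0.03, 3.17-fold, limma adjusted p = 7.31e-18). The distance between the phases was many times the spread of the 3 arrays in both dogs. Dog 3 had 6.72, 6.70 and 6.70 on resistant arrays and 7.33, 7.35 and 7.34 on sensitive arrays (-0.63, SE 0.03). Dog 4 had 6.43, 6.30 and 6.31 on resistant arrays and 6.49, 6.48 and 6.44 on sensitive arrays (-0.12, SE 0.03), a gap of 1.09-fold with no array overlap. Arrays of the phases did not overlap for 57.1% of all tested probes in dog 4.

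The sensitive phase of dog 2 had the highest CLU level (8.24 ± 0.05), followed by sensitive dog 3 (7.34 ± 0.01), resistant dog 3 (6.71 ± 0.01), resistant dog 2 (6.57 ± 0.03), sensitive dog 4 (6.47 ± 0.03), resistant dog 4 (6.35 ± 0.07), sensitive dog 1 (6.06 ± 0.01) and resistant dog 1 (4.75 ± 0.05; SD, n = 3 arrays each). No neighbours in this order overlapped. The processed signal of probe 1 ran from 22900 to 25200 intensity units in resistant dog 1 and from 313000 to 333000 in sensitive dog 2, and no spot was marked as saturated. The resistant phases of dogs 2 and 3 were 0.13 apart, while their sensitive phases were 0.90 apart.

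The 5 CLU probes followed each other across the 24 arrays with r between 0.98 and 1.00, a description of arrays that share 4 dogs. They differed in the size of the change in dog 2, which was -1.66, -1.78, -2.06, -2.41 and -2.41 from the brightest to the dimmest probe. In dog 3 the same order gave -0.63, -0.61, -0.62, -0.42 and -0.36. Thus the dimmer probes showed the larger change in dog 2 and the smaller one in dog 3. In dog 4 probe 3 was at 0.00, probe 4 at 0.05 and probe 5 at -0.04, and none of these passed. Quantile normalisation gave -2.14 and normexp correction -2.28 for probe 1 in dog 2.

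The mean change of CLU probe 1 over the dogs was -0.93 (SE 0.29, 95% interval -1.67 to -0.20, lower in 4 of 4 dogs), and the other probes gave means from -1.06 to -0.98. None passed limma's test over the 8 means (adjusted p from 0.720 to 0.831). For probe 1 the exact sign-flip test again gave its smallest p, 1 in 8. With the 24 arrays as units and the group as a random block, which rests on 1 correlation shared by all probes, probe 1 passed with a limma adjusted p of 0.000402. It was 1 of 2186 probes that passed of 34551 tested. The arrays may be technical repeats, so that fit says less about dogs than the 8 means do. FLT3 did not pass in the fit to 24 arrays. Over the 8 means its unadjusted p by limma was the smaller, 0.00141 against 0.022 for CLU probe 1.

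**Figure D2:**
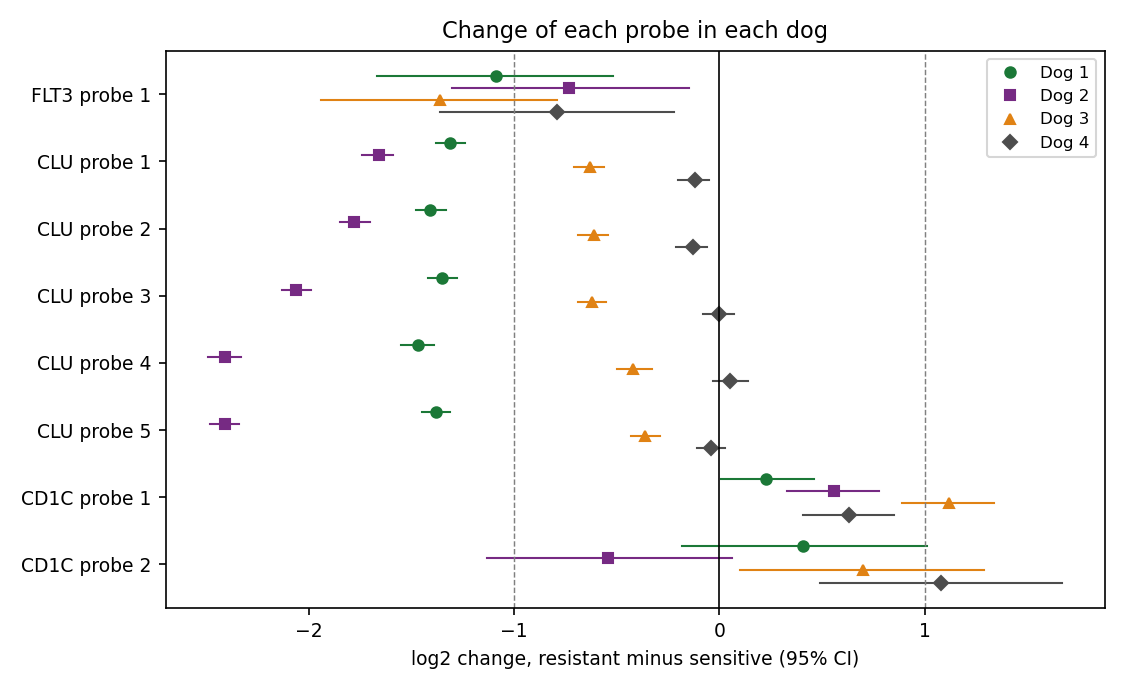
Change of each of the 8 probes in each dog (x axis, resistant minus sensitive on the log2 scale), with symbols for dogs and bars for limma's 95% confidence interval; dashed lines mark 2-fold. FLT3 intervals of the 4 dogs overlap, CLU changes spread from -2.41 in dog 2 to 0.05 in dog 4, and the CD1C probes lie on opposite sides of 0 in dog 2.

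CD1C moved the other way and was higher in the resistant phase in 4 of 4 dogs on its brighter probe. The change passed in dog 3 alone (1.12, SE 0.11, 2.17-fold, limma adjusted p = 7.68e-08). It was 0.56 in dog 2 (SE 0.11, adjusted p = 0.000164 by limma), 0.63 in dog 4 (SE 0.11, adjusted p = 9.47e-05 by limma) and 0.23 in dog 1 (SE 0.11, adjusted p = 0.0715 by limma), all under 2-fold. Of all tested probes, 3.56%, 3.53%, 1.28% and 3.77% rose in dogs 1 to 4, and 8.90% were higher in all 4 dogs.

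Probe 1 of CD1C stood at -2.61, -2.45 and -2.40 on the resistant arrays of dog 3, against -3.36, -3.54 and -3.91 on the sensitive arrays. Dog 1 had -2.50, -2.62 and -2.54 on resistant arrays and -2.83, -2.83 and -2.71 on sensitive arrays. Dog 2 had -3.18, -3.22 and -3.29 on resistant arrays, against -3.73, -3.79 and -3.84 on sensitive arrays. In all these dogs the resistant arrays lay above the sensitive ones, and the sensitive arrays of dog 3 were the most scattered. Dog 4 likewise had -2.75, -2.59 and -2.67 on resistant arrays, above -3.45, -3.12 and -3.32 on sensitive arrays. Arrays of the phases did not overlap, in either direction, for 57.1% to 70.4% of all tested probes in a dog.

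Probe 2, with 23 of 24 arrays well above background, agreed in direction in 3 dogs. It rose in dog 4 (1.08, SE 0.28, 2.11-fold, limma adjusted p = 0.00423), a call that ended after normexp correction with quantile normalisation (0.20), in the deposited value table (0.39), with quantile normalisation alone (0.91) and without sensitive array 2 (0.98). In dog 4 slide, scan day and phase cannot be told apart. The change of probe 2 was 0.41 in dog 1 and 0.70 in dog 3. In dog 3 sensitive array 2, at -3.58, lay far above the other sensitive arrays, at -4.95 and -4.90. Without that array the change in dog 3 was 1.15 and passed, and leaving out sensitive array 1 gave 0.46, which did not. In dog 2 probe 2 was lower, at -5.54, -5.62 and -6.16 on resistant arrays against -5.21, -5.33 and -5.17 on sensitive arrays (-0.54, SE 0.28, adjusted p = 0.109 by limma), with 2 of the 3 resistant arrays well above background. The direction of CD1C in dog 2 was therefore not settled by its 2 probes, which correlated over the 24 arrays with r = 0.66.

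By mean level of probe 1, resistant dog 3 (-2.48 ± 0.11), resistant dog 1 (-2.56 ± 0.06), resistant dog 4 (-2.67 ± 0.08) and sensitive dog 1 (-2.79 ± 0.06) formed an upper run in which neighbours overlapped. Below it came resistant dog 2 (-3.23 ± 0.06), sensitive dog 4 (-3.30 ± 0.17), sensitive dog 3 (-3.60 ± 0.28) and sensitive dog 2 (-3.79 ± 0.06; SD, n = 3 arrays each), whose neighbours overlapped too. The gap between the runs, from sensitive dog 1 to resistant dog 2, was 0.44.

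Averaged over the dogs, probe 1 changed by 0.63 (SE 0.18, 95% interval 0.18 to 1.09; limma adjusted p = 0.691) and probe 2 by 0.41 (SE 0.29, 95% interval -0.32 to 1.15; limma adjusted p = 0.839). The exact two-sided sign-flip p was the smallest possible, 1 in 8, for probe 1 and 0.375 for probe 2. Both probes differed between dogs (limma F-test, adjusted p = 0.000354 and 0.00808). With the slide as a block the change of probe 1 in dog 3 was 0.99, just under 2-fold. The call in dog 3 also ended without sensitive array 3 (0.96), with the mean of the 2 probes (0.91), in the deposited value table (0.79) and after normexp correction (0.76). The mean of the 2 probes was at 0.01 in dog 2.

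Of the 32 combinations of a probe and a dog, 12 fell, 2 rose and 18 did not pass, where 1.57% to 10.1% of all tested probes fell and 1.28% to 3.77% rose in a dog. The 5 CLU probes, which follow each other closely, gave 10 of the 12 falls, all in dogs 1 and 2, so these are not independent. Over the 8 group means, the level of FLT3 correlated with that of CLU at r = 0.88 and with that of CD1C at r = -0.78, and CLU with CD1C at r = -0.77. These are descriptions of 8 points from 4 dogs that share arrays. In cells from a whole aspirate, fewer cells of a type and less RNA per cell cannot be told apart.

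**Figure D3:**
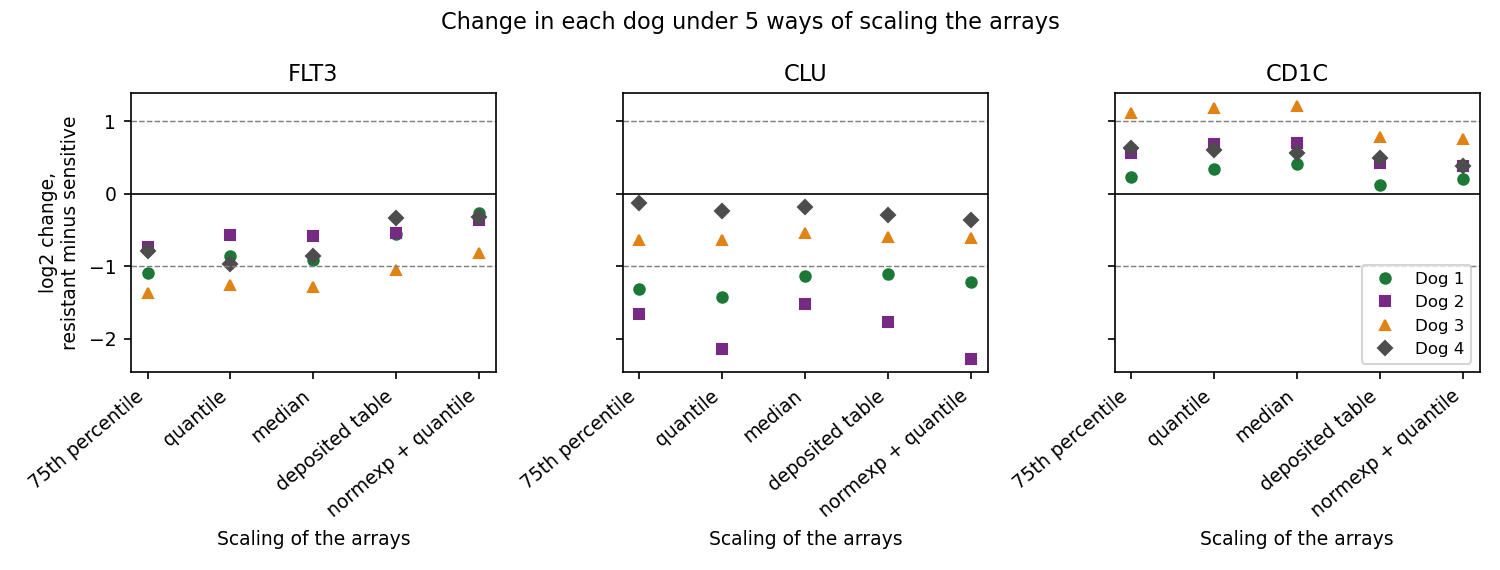
Change of FLT3, CLU probe 1 and CD1C probe 1 in each dog (y axis, resistant minus sensitive on the log2 scale) under 5 ways of scaling the arrays (x axis); dashed lines mark 2-fold. The sign of each gene in each dog is the same in all 5, while FLT3 in dog 1 runs from -1.09 to -0.26 and CLU in dog 2 from -2.28 to -1.52.

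FLT3LG, coding for the ligand of FLT3, did not pass in any dog, with changes of 0.15, 0.10, 0.03 and 0.30 in dogs 1 to 4 where FLT3 was lower. KIT, a related receptor of progenitors and mast cells, fell in dog 2 (-1.23, with 2 of 3 resistant arrays well above background) and dog 3 (-1.52). In dogs 1 and 4, where it did not pass, KIT stood at -0.38 and 0.04 on the same scale of change. KITLG, coding for the ligand of KIT, fell in dog 2 (-1.34) and in dog 1 was lower by at least 1.56-fold, where 0 of 3 resistant and 2 of 3 sensitive arrays were well above background. For such a gene the sensitive mean is set against the lowest signal well above background on the resistant arrays. PDGFRB, a receptor of stromal cells in the same family, and PDGFB, a ligand of it, passed in no dog. In this list of 5 measured genes, 1, 2, 1 and 0 passed as lower and 0 as higher in dogs 1 to 4, the one in dog 1 being KITLG, whose bound is under 2-fold. Over all 718 tested genes with a symbol, 123, 140, 91 and 17 passed as lower and 35, 30, 14 and 37 as higher, so no more is read from so short a list. Of the FLT3 signalling list, SOCS3, a feedback inhibitor of cytokine signalling, passed in no dog, with changes of -0.96, 0.58, 0.46 and 0.20 in dogs 1 to 4. Among 5 measured growth factors of myeloid and dendritic cells, CSF2 was lower by at least 1.67-fold in dog 2, where 0 of 3 resistant arrays were well above background, while TNF, LTB and VEGFA passed in no dog. IL3 was well above background on the resistant arrays of dog 4 and in no other group, so it entered the test only through the group where it is high, and no change is given for it.

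Other genes of follicular dendritic cells fell mainly in dog 2. VCAM1, an adhesion molecule, and PRNP, the prion protein gene, fell in dog 2 (-1.46 and -1.52), and PDPN, coding for the stromal membrane protein podoplanin, fell in dog 1 (-1.55) and dog 2 (-2.77, with 1 of 3 resistant arrays well above background). Of these 3 measured genes 1, 3, 0 and 0 fell in dogs 1 to 4, with median changes of -0.66, -1.52, -0.23 and -0.08. Over all 718 named genes 123, 140, 91 and 17 passed as lower, so dog 2 had the most falls there too. The medians over all 718 named genes were -0.11, -0.07, -0.01 and 0.09. CLU had its largest change in dog 2 and its smallest in dog 4, as did VCAM1 and PDPN. PRNP had its smallest in dog 3 (-0.23, against -0.27 in dog 4). The pattern was not particular to this list. KLRD1, a gene of NK cells, also had its largest change in dog 2 (-6.42) and its smallest in dog 4 (-0.03). VCAM1, PRNP and PDPN are all also expressed by other stromal or lymphoid cells.

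Among conventional dendritic cell genes, FCER1A, which codes for a chain of the high-affinity IgE receptor and is also expressed by mast cells and basophils, was lower in each dog. In dog 1 it was lower by at least 6.77-fold, where 0 of 3 resistant arrays were well above background, and fell in dog 2 (-1.51, SE 0.19) and dog 3 (-3.11, SE 0.19), with -0.73 in dog 4. CD1A6 and CD1A8, canine relatives of CD1C, did not pass in any dog. CD1A6 had changes of -0.58, 0.45, -0.85 and 0.99 in dogs 1 to 4, and CD1A8 of -0.04, 0.27, -0.05 and 0.76. In dog 3, where CD1C rose on its brighter probe, CD1A6 was thus lower. CD1A8 levels in the resistant phase ranged from -5.72 in dog 2 to 1.14 in dog 3, and those in the sensitive phase from -5.99 in dog 2 to 1.19 in dog 3.

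No measured plasmacytoid dendritic cell gene passed. TLR9, a sensor of DNA, was higher in 4 of 4 dogs (0.49, 0.67, 0.49 and 0.37), TLR7, a sensor of RNA, changed by 0.65, -0.68, 0.37 and 0.08, and the transcription factor gene TCF4 by -0.71, 0.38, 0.36 and 0.16. Of 6 measured genes of activated dendritic cells, 1 rose and 1 fell in dog 1, and 1, 2 and 1 fell in dogs 2 to 4, near the share of all named genes in dogs 1 and 2, where 123 and 140 of 718 passed as lower. CD86, a costimulatory ligand for T cells, fell in dog 3 (-1.11), while CD80, its relative, did not pass. CCL17, an attractant of helper T cells, fell in dog 1 (-2.52), and CCL19, a chemokine ligand of CCR7 that stromal cells also make, rose in dog 1 (2.50) and fell in the others (-2.88, -2.66 and -1.28).

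**Figure D4:**
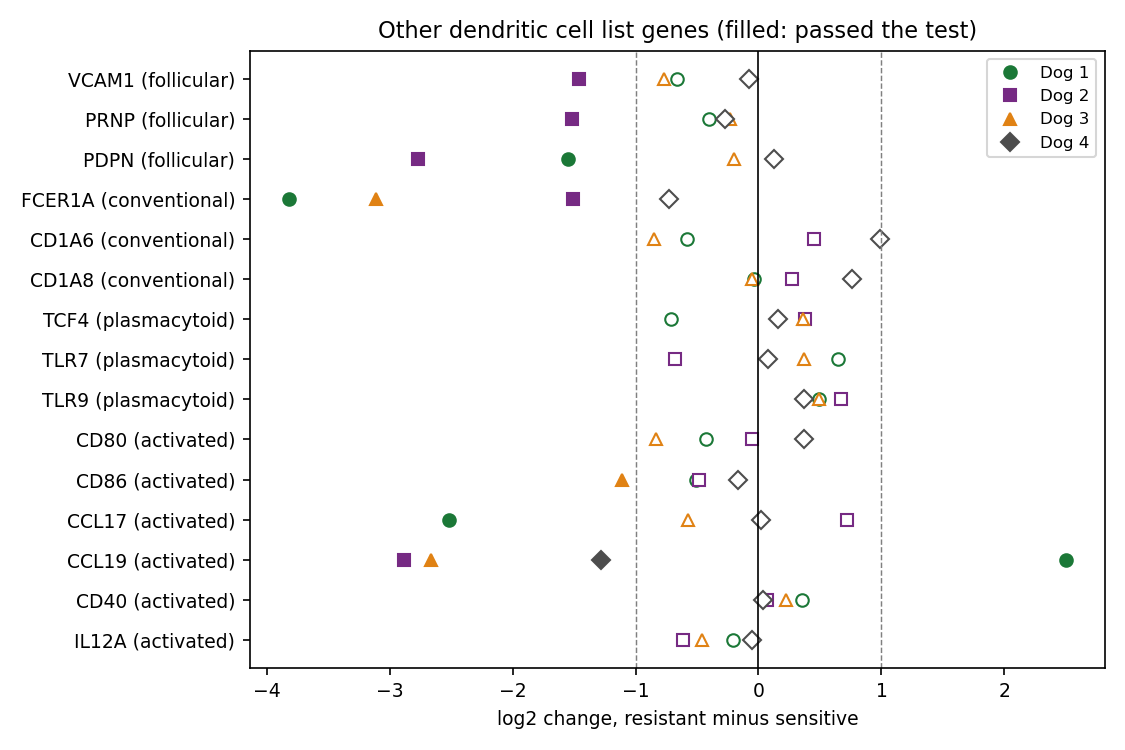
Change in each dog (x axis, resistant minus sensitive on the log2 scale) of the 15 other measured genes of 4 dendritic cell lists, with symbols for dogs, filled where the change passed; dashed lines mark 2-fold. FCER1A passed in dogs 1 to 3, where its dog 1 point rests on resistant arrays not well above background, and CCL19 is on the high side in dog 1 alone.

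Of the other measured genes for lipid antigen presentation, NPC2, a lysosomal cholesterol transporter, and CTSS, coding for a lysosomal protease of antigen-presenting cells, fell in dog 2 (-2.38 and -1.34). AP3B1, a subunit of a vesicle sorting complex, did not pass in any dog. Of a list of extracellular chaperones, complement and lipoproteins that includes CLU, 2 other genes were measured, both of apolipoproteins. APOC3 passed as higher in dog 2 (2.26), where 1 of 3 sensitive arrays was well above background, and APOH as lower in dog 2 (-1.33), where 1 of 3 resistant arrays was. Arrays of the phases overlapped for both genes in dog 2, so neither direction is settled there.

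Markers of other cells differed between the phases too. The summed linear level of 8 measured fibroblast and stroma genes was lower in the resistant phase in each dog without overlap of arrays, at 1.18 to 1.22 against 2.41 to 2.42 in dog 1, 2.69 to 2.97 against 8.45 to 8.91 in dog 2, 4.86 to 5.10 against 15.0 to 15.7 in dog 3 and 3.12 to 3.24 against 4.43 to 5.07 in dog 4. For single probes, arrays of the phases did not overlap for 57.1% to 70.4% of all tested probes in a dog. The bright gene COL1A2, coding for a collagen chain, decided the stroma sum in dog 1. Without it, an omission chosen after the values were seen, the sum of the other 7 genes was higher in resistant dog 1, at 0.976 to 1.03 against 0.642 to 0.668, and lower in the other dogs, at 0.540 to 0.671 against 2.16 to 2.24 in dog 2, 1.39 to 1.52 against 6.18 to 6.34 in dog 3 and 0.707 to 0.811 against 1.10 to 1.28 in dog 4. Only CCL19 of these 7 passed as higher in dog 1, with a mean of -0.74 in the resistant and -3.23 in the sensitive phase. It was the brightest of the 7 in resistant dog 1, and others of the 7 passed as lower there. Of the 8 genes 3, 6, 6 and 2 passed as lower and 1, 0, 0 and 0 as higher in dogs 1 to 4, with median changes of -0.35, -1.67, -1.50 and -0.44. Of all 718 named genes 123, 140, 91 and 17 passed as lower and 35, 30, 14 and 37 as higher. That list shares CCL19 and PDGFRB with lists above. COL1A2 fell in dogs 1 to 3, COL1A1, coding for another collagen chain, in dogs 2 and 3, and DCN, coding for decorin, in dogs 1 and 3, while BGN passed in no dog. In dog 2 DCN was lower by at least 1.88-fold, where 0 of 3 resistant arrays were well above background.

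The sum of 5 T cell genes was lower in the resistant phase in dogs 1, 2 and 3, at 0.248 to 0.275 against 0.394 to 0.459, 0.273 to 0.284 against 4.41 to 4.65 and 0.315 to 0.429 against 0.482 to 0.527, and higher in dog 4, at 0.502 to 0.537 against 0.350 to 0.415. Arrays overlapped in none of the 4 dogs, as for 57.1% to 70.4% of all tested single probes in a dog. The T cell receptors of costimulation and inhibition CD28, CTLA4 and ICOS passed as lower in dogs 1 to 3, in part on resistant arrays not well above background, and the coreceptor genes CD4 and CD8A in dog 2 alone, so 3, 5, 3 and 0 of 5 passed. In dog 1 ICOS was well above background on 0 of 3 resistant and 1 of 3 sensitive arrays, so no fall is stated for it there. In dog 4 CD4, CD28, CTLA4 and ICOS changed by 0.79, 0.30, 0.64 and 0.71 and CD8A by -0.36. Slide, scan day and phase cannot be told apart in that dog. The 2 measured macrophage genes went opposite ways in dogs 1 and 2. FCGR1A, an IgG receptor gene, changed by -3.67, 1.62, -2.64 and 0.46 in dogs 1 to 4, and CD163, a scavenger receptor gene, by 0.53, -0.74, -1.33 and 0.33, so no sum is given for them. The NK genes KLRD1 and CCL5 both passed as lower in dogs 1 and 2, and KLRD1 in dog 3. Of the neutrophil genes CAMP, MMP9, CXCR2 and ELANE 3, 0, 3 and 0 passed as lower and 1, 2, 0 and 0 as higher. Of the endothelial genes VWF, KDR and SELE, KDR passed as lower in dogs 1 to 3. In dog 1 KDR was lower by at least 2.67-fold, where 0 of 3 resistant arrays were well above background. The erythroid and platelet gene ITGA2B passed in no dog. Beside these counts, 123, 140, 91 and 17 of all 718 named genes passed as lower and 35, 30, 14 and 37 as higher. The part of these cells in the changes of FLT3, CLU and CD1C was not tested.

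Among the 717 other named genes, those whose 8 group means followed FLT3 most closely were BGN, coding for the matrix proteoglycan biglycan (r = 0.947), PTGES, a prostaglandin synthase gene (r = 0.940), and the cytokine gene IL33 (r = 0.940). PTGES changed by -1.73, -1.31, -1.88 and -0.32 in dogs 1 to 4, and BGN, whose level differed mainly between dogs, by -0.04, -0.14, -0.45 and 0.03. BGN was dim in every group, with means from -6.23 to -5.44. In resistant dogs 1 and 4 it was well above background on 2 of 3 arrays. For CLU they were the calcium-binding protein gene S100A4 (r = 0.980), the gap junction gene GJA5 (r = 0.967) and ANXA2, coding for annexin A2 (r = 0.962). S100A4 changed by -2.36, -2.00, -1.44 and -0.34, the dogs falling in nearly the same order as for CLU. It was picked for its likeness to CLU, so this order is not separate evidence. For CD1C they were RAB11A (r = 0.908), AAMP (r = 0.857) and MAVS (r = 0.840), with changes between -0.25 and 0.55. Each r is over 8 points from 4 dogs and is a description only.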

How the data were processed

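The authors deposited spot intensity, on a linear scale, as written by Agilent's Feature Extraction program, whose version is 10.7.3.1 in the submitters' processing notes. The sources used here name no genome build. Quality flags (well above background, saturated, outlier) were used as deposited. The deposited value table equals the raw median intensity of each spot (largest difference 0 on 24 arrays), so it is linear, uncentred and not normalised between arrays, with column medians from 97 to 141. No scale, centring or direction stayed unknown.

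Control spots (1417 of 45220) and outlier spots (6 to 195 an array, 0 of them spots of the 8 probes) were left out. Spots of the same probe were averaged, and 0 were saturated. Log2 signals were set against each array's 75th percentile. A probe was tested if well above background on all 3 arrays of a group. Names come from RefSeq (UU_Cfam_GSD_1.0, names alone): 832 of 35908 identifiers matched. Limma (version 3.58.1, R 4.3.3) was fitted to 24 arrays in 8 groups for changes within a dog and the F-test between dogs, and, across dogs, to the 8 group means, blocked on dog because both phases come from 1 animal. Tests were two-sided, and the functions were tested on simulated data.

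Members and gene lists were chosen with earlier results of these data known. Each probe was tested separately, and lists are described by counts. Named genes were all 8 probes, the 3 genes most like each member, and of each list the first 4 measured genes, or all where 5 or fewer were measured. The planned mean signal column is not in these files, so normexp (offset 50) used the median. Other alternatives were quantile and median scaling, the deposited table, filters, 1 value per identifier, slide and replicate blocks, no dog block, and leaving out each array or dog. One measured gene of the FLT3 signalling list is not reported here.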

Additional observations from a re-analysis of the deposited data

Results flagged for a closer look

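The change between phases differed between dogs on all 5 CLU probes by limma's F-test, with adjusted p of 1.5e-14, 7.63e-15, 4.04e-16, 1.1e-16 and 2.49e-17 from the brightest to the dimmest probe, and on both CD1C probes, with adjusted p of 0.000354 and 0.00808. The spread behind these values is that between arrays of 1 dog and phase, pooled over the 8 groups, and 80.5% of all tested probes passed the same test.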

How the results depend on the processing

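FLT3 and CLU probe 1 were lower and CD1C probe 1 higher in every dog under the alternatives that give a value for them. These leave out dog 4 with slide as a fixed block, and the mean of the CD1C probes in dog 2 was 0.01. With normexp and quantile normalisation, FLT3 changed by -0.26 in dog 1 and -0.81 in dog 3 and CD1C by 0.76 in dog 3, all 3 under 2-fold, the FLT3 difference between dogs had an adjusted p of 0.00878, and 998, 1879, 707 and 222 probes passed in dogs 1 to 4 (3906, 4698, 2327 and 1845 in the chosen setting). FLT3 in dog 1 was also under 2-fold with quantile normalisation (-0.86), median scaling (-0.91) and the deposited value table (-0.56), where CD1C in dog 3 was at 0.79 and 1518, 2623, 1048 and 298 probes passed. Probes well above background on all 24 arrays, a smaller set, gave 1800, 2612, 1040 and 539, and no filter gave 3021 in dog 4. CD1C in dog 3 was at 0.91 as the mean of its probes and at 0.99 with slide as a block. With the 24 arrays as units, which may be technical repeats, CLU passed across dogs (-0.93) with 2186 probes. Leaving out 1 array gave -1.58 to -0.81 for FLT3 in dog 1 and 0.96 to 1.24 for CD1C in dog 3. CLU probe 4 in dog 4 was at -0.01 with median scaling, and CLU probe 3 in dog 4, at 0.00 with all arrays, ran from -0.01 to 0.01 and turned sign without sensitive array 2 (0.00) or resistant array 2 (0.01). CD1C probe 2 in dog 4 was under 2-fold with normexp (0.20), quantile normalisation (0.91), the deposited table (0.39) and without sensitive array 2 (0.98). Its difference between dogs had an adjusted p of 0.216 with slide as a block, which gives no value in dog 4. Where the cause of a change is not named, the cause was not tested.

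The share of passing probes that were higher was 31.5%, 26.0%, 19.0% and 70.7% in dogs 1 to 4, against 39.1%, 18.3%, 10.9% and 40.1% with normexp, 45.4%, 33.2%, 25.2% and 48.0% with quantile normalisation, 45.7%, 37.4%, 26.2% and 63.9% with median scaling, and 31.6%, 25.1%, 8.87% and 50% in the deposited table. The median change over all probes in dog 1 was 0.13 with median scaling, against -0.05. Array numbers were not taken to pair the phases: deviations of the 12 same-numbered pairs correlated between -0.12 and 0.09, and 3 of 12 arrays correlated best with their own number. A replicate block changed no call of the 8 probes, gave FLT3 in dog 1 an adjusted p of 0.0109 by limma, and gave 3771, 4593, 2256 and 1735 passing probes. Dim signals limit FLT3 and CD1C more than CLU.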
